A study of Mus musculus with 4 samples.

Results

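The genes described here were detected in only 1 of 2 RAW264.7 lines, on both arrays of that line and on neither array of the other. Of 25079 named genes on the array, 15520 were detected on both arrays of at least 1 line, and 265 met this rule: 227 on the arrays labelled scramble and 38 on the arrays labelled knockdown. RAW264.7 cells are a mouse macrophage-like line in long use, and their total RNA was read on 4 Agilent 1-colour arrays, 1 per group. Each line, scramble or knockdown, was kept for 4 h either in the culture medium DMEM or with AEPS, a polysaccharide from the root of Actinidia eriantha, added at 50 µg/mL, which gives 4 groups. Where 2 values are given for a line, the first is DMEM and the second AEPS. Both lines carried a stably integrated pcDNA6.2-GW/EmGFP-miR vector, which expresses an artificial microRNA beside a green fluorescent protein, and both had been selected with blasticidin. The scramble line held a control sequence, and the knockdown line one against the lincRNA Linc-AAM. Each line was 1 bulk culture and not a set of clones, and no group had a replicate, so the differences below compare single arrays. In bulk RNA, fewer cells that express a gene and less RNA per cell cannot be told apart.

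A microarray reads a transcript through the brightness of a short DNA probe, and a gene counts as detected where its spot is well above the local background. A gene that is silent in one culture and on in another therefore shows as a mark present in the one and missing in the other, and so does a weak gene that lies near the threshold in both. Macrophages read microbes and sugars through surface receptors and answer with cytokines, while genes such as homeobox factors, WNT ligands or milk proteins are best known from development and other tissues. The rule used the marks and therefore the difference between the lines, so that difference is a description here and carries no test.

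The names of the lines need care. Ranked over all probes, each column of the deposited value table matched the scanner file of the other line and the same medium (Spearman rho of 1.0 to the digits computed in all 4 columns), and its own scanner file less closely (0.96883 to 0.96896). Linc-AAM was not analysed here, so its level does not settle the question. Lines are named as on the scanner files, and under the table's names the 2 groups of genes trade places: the line difference took the opposite sign in both media for 217 of the 227 genes and for 38 of the 38. Checked against the label of a macrophage line, 9 of 9 macrophage markers, among them Csf1r, Cd68 and Spi1, were detected on every array, with a summed level of 71536% to 81409% of the array's 75th percentile, the scale used throughout. Csf1r alone read 32885% to 48292%, so the sum says little of the weaker markers. On each array, 3 of 4 neuron, 2 of 4 endothelial and 2 or 3 of 5 T cell markers were also detected. The brightest of these were Snap25 (1196% to 1380%), Kdr (954% to 1190%) and Cd4 (463% to 534%).

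The genes with the clearest restriction are shown through the first 30 of the 60 bases of the probe that read them, in lower case and as the scanner files list them, to show what the array read. The first 4 were detected on the arrays labelled scramble and the last 4 on those labelled knockdown.
Fam149a: aactggaatatatagtcatctccctggcaa
Hoxb13: aaatcgctttcatgagttgagctgattgtg
Ctse: gacctgtttttacagttggtttatttgtat
Agap2: tcacctccaaagcaggtggtgtgaatctta
Maged1: tgtcagatactgctcatcatttgcaatagt
Wnt10b: gggtgggaatggataatttattttactgag
Rufy4: tcttgtgtttcgcagatttactgagtcgtt
Klhl10: caagtaccctacctgtatgagcctcttcat
In the mm9 coordinates of the scanner files, the Fam149a probe lies on chromosome 8 (46424505 to 46424564, minus strand), the Hoxb13 probe on chromosome 11 (96057854 to 96057913, plus) and the Ctse probe on chromosome 1 (133571990 to 133572049, plus). Agap2 was read on chromosome 10 (126530166 to 126530225, plus). The Maged1 probe covers 242 bases on chromosome X (91780963 to 91781204, minus) for its 60 bases, so it spans a gap in the genome. Wnt10b was read on chromosome 15 (98602209 to 98602268, minus), Rufy4 on chromosome 1 (74194738 to 74194797, plus) and Klhl10 on chromosome 11 (100318241 to 100318300, plus). Exon and UTR annotation in mm9 was not used here.

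Most of the 265 genes were weak where they were detected, and the restriction was small. The 227 genes of the scramble arrays made up 1.48% of the 15349 named genes detected on both of those arrays, and the 38 genes of the knockdown arrays 0.255% of 14884. In DMEM the level of the 227 on the scramble array ranged from 2.45% to 177% with a median of 3.69%, against a median of 2.71% on the knockdown array, and 207 of them lay under 10% of the 75th percentile. The 38 had a median of 5.34% on the knockdown array in DMEM (3.95% to 74.1%) and 1.83% on the scramble array. As a log2 difference, knockdown minus scramble, the medians were -0.42 in DMEM and -0.65 under AEPS for the 227, and 1.91 and 2.12 for the 38. The dim side of these differences was not well above background, so they are read as they stand in the files and are not measured folds.

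How far a gene was restricted is given as a bound: the ratio of the brighter array to the dimmer one, where the dimmer value is raised to that array's lowest detected signal if it falls short of it. That lowest signal was 2.41% and 3.15% of the 75th percentile on the 2 scramble arrays and 3.81% and 3.60% on the 2 knockdown arrays, so a gene was marked as detected at a lower level on the scramble arrays. All 38 knockdown genes and 97 of the 227 scramble genes had a bound above 1-fold in both media. The other 130 scramble genes had none in 1 or both media. Among these 130, 80 were brighter on the scramble arrays in both media, 48 in 1 medium and 2 in neither. A weaker mark for signal, positive and significant against background, was present on both knockdown arrays for 207 of the 227, so for most of them some signal was also seen in the other line. It was present on both scramble arrays for 26 of the 38.

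**Figure D1:**
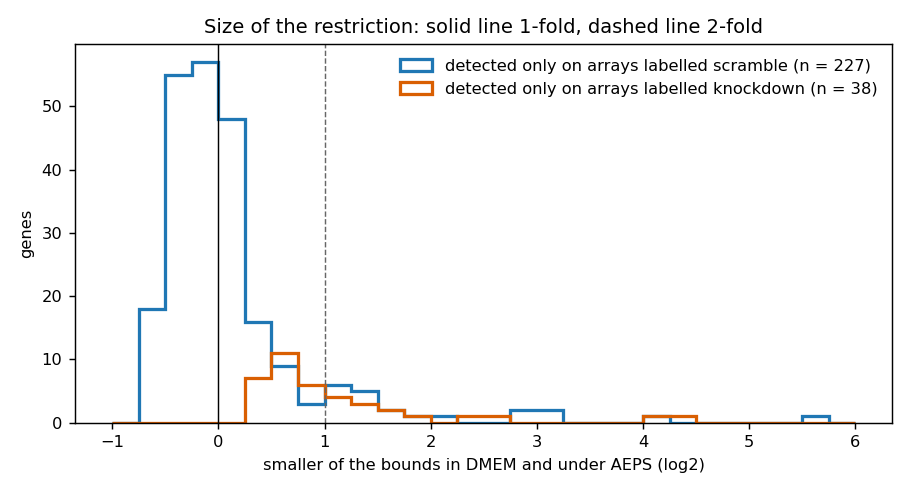
Number of genes (vertical axis) by the smaller of their bounds in DMEM and under AEPS (horizontal axis, log2, bins of 0.25), for the 227 genes of the scramble arrays and the 38 of the knockdown arrays; a solid line marks 1-fold and a dashed line 2-fold. The scramble genes pile up around 1-fold with a thin tail to the right, while all knockdown genes lie to the right of the solid line.

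The split of 227 against 38 depends on that threshold. With 1 common threshold for all arrays, 3.81% of the 75th percentile, a setting chosen after the data were seen, 82 genes were restricted to the scramble arrays and 100 to the knockdown arrays, so the larger group changed sides. Of these, 81 and 35 were among the genes described here, and so were all 21 and all 14 genes with a bound of at least 2-fold in both media. These 21 genes (0.137% of those detected on the scramble arrays) and 14 genes (0.0941% of those detected on the knockdown arrays) are described first.

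**Figure D2:**
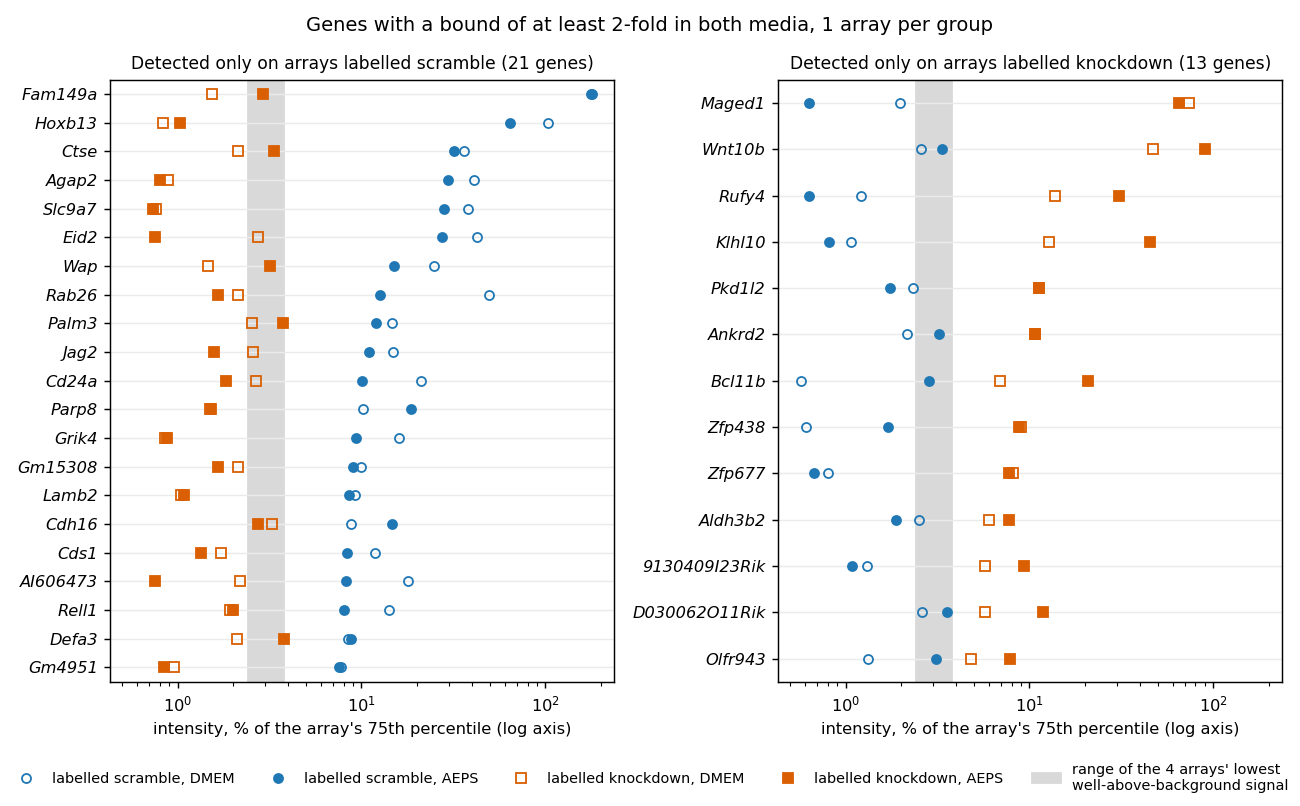
Level of genes with a bound of at least 2-fold in both media (rows, 21 scramble and 13 knockdown genes) on the 4 arrays, as a percentage of the array's 75th percentile on a log axis; circles are arrays labelled scramble, squares arrays labelled knockdown, open symbols DMEM and filled symbols AEPS, 1 array each, and the grey band spans the arrays' lowest well-above-background signals (2.41% to 3.81%). In every row the 2 symbols of the detecting line lie right of the band, and those of the other line lie in it or to its left.

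Among the scramble genes, 2 stood far above the rest. Fam149a, a gene of little known function, stood at 177% in DMEM and 178% under AEPS on the scramble arrays, and at 1.53% and 2.91%, not well above background, on the knockdown arrays. It was thus at least 46.5-fold higher in DMEM and at least 49.6-fold higher under AEPS on the scramble arrays, the largest bound of the 265. A further Fam149a probe (chromosome 8, 46422180 to 46422239) read 6.21% and 5.50% against 0.798% and 0.734% and was marked the same way. Hoxb13, a homeobox transcription factor of posterior body patterning, stood at 103% and 64.4% on the scramble arrays and at 0.836% and 1.04% on the knockdown arrays. Its bounds were 27.0-fold in DMEM and 17.9-fold under AEPS.

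A second tier of 4 scramble genes had bounds between 7.63-fold and 11.1-fold. Ctse, the endosomal aspartic protease cathepsin E, read 36.2% and 31.9% against 2.13% and 3.34%. Agap2, a regulator of Arf GTPases, read 41.0% and 29.7% against 0.887% and 0.799%. Both genes were similarly bright in the 2 media on the scramble arrays. Slc9a7, a cation and proton exchanger of the Golgi, read 38.0% and 28.1% against 0.759% and 0.734% (chromosome X, 19682881 to 19682940). Its restriction rests on how probes are named: a probe with the older name 6330509M05Rik, now assigned to Slc9a7, read 104% and 25.4% against 4.22% and 3.16% and was detected on the knockdown array in DMEM, so the gene leaves the set when probes are grouped by current symbol. Eid2, an inhibitor of EP300-dependent differentiation, read 42.4% and 27.5% against 2.73% and 0.751%.

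Further down, secreted and signalling genes followed. Wap, the whey acidic protein of milk, read 24.7% and 15.03% on the scramble arrays against 1.45% and 3.17%. Rab26, a small GTPase of secretory vesicles, read 49.5% in DMEM and 12.6% under AEPS against 2.12% and 1.66%. Jag2, a Notch ligand, read 14.9% and 10.97% against 2.59% and 1.58%, with bounds of 3.91-fold and 3.05-fold. In each of these genes both scramble arrays lay above both knockdown arrays, an order that follows from the way the 21 genes were chosen.

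Cd24a, a lipid-anchored glycoprotein of the cell surface, read 21.0% and 10.0% against 2.68% and 1.84%. Palm3, of the paralemmin family of membrane proteins, had bounds of 3.86-fold and 3.21-fold. Parp8, an ADP-ribosyltransferase, had bounds of 2.68-fold and 5.18-fold and was, with Cdh16, a cadherin of kidney epithelium, among the few of the 21 that were brighter under AEPS than in DMEM on the scramble arrays. The remaining genes, Grik4, Gm15308, Lamb2, Cds1, AI606473, Rell1, Defa3 and Gm4951, had bounds between 2.02-fold and 4.71-fold. Defa3 and Gm15308 belong to the alpha-defensins, a family of near-identical copies whose probes may read one another, so these 2 are not certain as separate genes.

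On the knockdown arrays, Maged1 and Wnt10b led. Maged1, an adaptor protein of the MAGE family, stood at 74.1% and 65.0% on the knockdown arrays and at 1.97% and 0.636% on the scramble arrays, which puts it at least 30.7-fold higher in DMEM and at least 20.6-fold higher under AEPS on the knockdown arrays. Wnt10b, a secreted WNT ligand, stood at 47.1% and 90.4% against 2.56% and 3.35%, with bounds of 18.4-fold and 27.0-fold. These 2 genes were well over 10 times as bright as the other line's lowest detectable signal in both media.

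Rufy4, an autophagy-linked protein with a RUN and a FYVE domain, read 13.8% and 30.5% on the knockdown arrays against 1.21% and 0.630%. Klhl10, an adaptor of a ubiquitin ligase known from spermatids, read 12.8% and 45.4% against 1.07% and 0.815%. Bcl11b, a zinc finger transcription factor of T cell development, read 6.95% and 20.7% against 0.574% and 2.83%. All 3 were brighter under AEPS than in DMEM on the knockdown arrays, and by the rule none was well above background on a scramble array.

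Pkd1l2, a polycystin-like membrane protein, read 11.3% in both media of the knockdown line, and Ankrd2, an ankyrin repeat protein of muscle, read 10.75% and 10.74%. Their bounds were 4.66-fold and 3.58-fold, and 4.45-fold and 3.33-fold. Zfp438 and Zfp677, both zinc finger genes, had bounds of 3.74-fold and 2.77-fold, and of 3.36-fold and 2.46-fold. Aldh3b2, an aldehyde dehydrogenase, 9130409I23Rik, D030062O11Rik and the odorant receptor gene Olfr943 followed, with bounds between 2.001-fold and 3.31-fold.

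**Figure D3:**
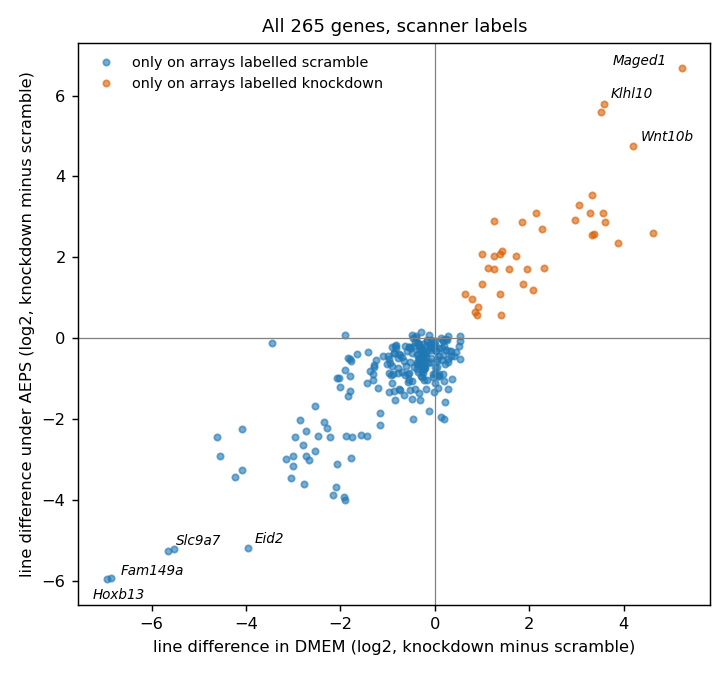
Line difference of each of the 265 genes (log2, knockdown minus scramble) in DMEM (horizontal axis) and under AEPS (vertical axis), 1 array against 1 per axis, with dim values that were not well above background taken as read; blue points are the 227 genes of the scramble arrays and orange points the 38 of the knockdown arrays. The orange points all lie in the upper right, from Maged1 (5.23 and 6.67) downward, while most blue points crowd near 0 and a tail runs to Hoxb13 (-6.94 and -5.96) and Fam149a (-6.85 and -5.94).

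Taken against dim values that were not well above background, the line differences of the 21 scramble genes had a median of -3.05 in DMEM and -2.98 under AEPS, and those of the 14 knockdown genes 2.83 and 2.78. Single genes varied more between the media, as the plot of both differences shows: Rab26 stood at -4.55 and -2.92, and Klhl10 at 3.58 and 5.80. At the other end, the scramble genes with the smallest bound were Prss32, a serine protease gene, Kbtbd13 and the alpha-defensin gene Gm7849. Prss32 read 2.51% and 4.36% on the scramble arrays against 2.04% and 2.29%, and no fold is given for any of the 3 in DMEM because the scramble level lay under the knockdown array's lowest detectable signal. Igsf11, an adhesion molecule, Grhl2, an epithelial transcription factor, and Zbtb16, a zinc finger factor, had the smallest bounds of the knockdown group, at 1.72-fold and 1.28-fold, 2.09-fold and 1.19-fold, and 1.73-fold and 1.19-fold. Repeated spots of the same probe, at levels of 2% to 20%, varied by a median SD of 0.21 to 0.24 log2 units, which is an error within arrays and says nothing of the spread between cultures.

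Just outside the rule were 397 genes on the scramble side and 131 on the knockdown side that were also marked on 1 array of the other line. The nearest was Btg3, an antiproliferative gene, with 160% and 475% on the scramble arrays and 1.65% and 4.19% on the knockdown arrays, of which the last was detected. Peg12, an imprinted gene, read 141% and 62.4% against 12.6% and 3.01%. Sema7a, a membrane-anchored semaphorin, was nearly the reverse, with 6.54% and 88.8% on the knockdown arrays against 0.673% and 10.3%. Lrmda (listed as 1700112E06Rik) read 37.9% and 30.5% against 3.85% and 2.93%, and Sapcd1 (listed as Ng23) 65.1% and 56.1% against 8.53% and 2.73%. Some of these line differences were larger than those of most of the 265, which follows from how the genes named here were picked. They were those with the largest difference, taken as the smaller of the 2 media, among the 397 and the 131. By its definition the rule reads the mark and not the size of the difference.

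In their gene classes the 2 groups were mixed. Protein-coding genes made up 170 of the 227 and 35 of the 38, long non-coding RNAs 7 and 0 and pseudogenes 5 and 0, and 44 and 3 had no RefSeq name. Uncharacterised names accounted for 68 of the 227 (2.14% of the 3178 such genes detected on the scramble arrays) and 5 of the 38 (0.164% of 3045). The receptors coupled to G proteins gave 12 of 273 (4.40%) on the scramble arrays, each of them an olfactory or vomeronasal receptor gene, and all had a bound under 2-fold in at least 1 medium. These receptor genes are many and alike, and a probe may read several. The shares of these classes stand against 1.48% and 0.255% of all genes and carry no test.

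Homeobox factors gave 3 of 50 on the scramble arrays, Hoxb13, Hoxa3 and Hoxc12, and 0 of 44 on the knockdown arrays. Hoxa3 had bounds of 2.47-fold and 1.65-fold, while Hoxc12 had a dimmer reading on the scramble array in DMEM (2.78%) than on the knockdown array (3.61%). Zinc finger genes named Zfp or Zbtb ran the other way, with 0 of 375 on the scramble arrays and 4 of 373 (1.07%) on the knockdown arrays: Zfp438, Zfp677, Zbtb8b and Zbtb16. Zbtb8b read 3.98% and 4.21% on the knockdown arrays, with bounds of 1.65-fold and 1.34-fold. Of the WNT ligands and frizzled receptors, Wnt10b was the 1 restricted gene of 10 detected on the knockdown arrays, and 0 of 10 were restricted to the scramble arrays.

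Lists of macrophage activation are read against the 1.48% and 0.255% of all genes. None of 35 interferon-stimulated genes detected on the scramble arrays and none of 33 on the knockdown arrays was restricted. Among cytokines, chemokines and their receptors, 1 of 40 on the scramble arrays and 0 of 37 on the knockdown arrays was restricted. That gene was Il7, a growth factor of lymphocytes, at 2.84% and 3.91% against 0.773% and 0.727%, with no bound in DMEM and 1.09-fold under AEPS. Dlk1, an imprinted gene and 1 of 20 on its list, read 2.81% and 4.61% against 2.28% and 1.59%, and Tex14, a germ cell gene and 1 of 11 on its list, had bounds of 1.52-fold and 1.16-fold. Tlr3, the receptor for double-stranded RNA, also met the rule, with 5.26% and 11.4% on the scramble arrays against 1.53% and 1.46% and bounds of 1.38-fold and 3.18-fold.

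Solute carriers gave 4 of 276 on the scramble arrays (Slc9a7, Slc44a5, Slc6a7 and Slc35f3) and 0 of 269 on the knockdown arrays. Ion channel subunits gave 4 of 98, led by the glutamate receptor subunit gene Grik4 (16.0% and 9.39% against 0.854% and 0.876%), and 1 of 91, the cation channel gene Trpm3 (5.38% and 4.54% on the knockdown arrays against 2.06% and 1.08%). Matrix genes and proteases gave 5 of 87, led by Lamb2, a laminin chain (9.26% and 8.58% against 1.04% and 1.09%), and 1 of 81, the protease inhibitor gene Serpinb11. One of the 5, Dcn, a proteoglycan of connective tissue, is also a fibroblast marker. Of 5 fibroblast markers, 3 were detected on each scramble array, 1 on the knockdown array in DMEM and 2 on the one under AEPS, with summed levels of 17.2%, 34.1%, 12.7% and 27.1% in the usual order, while Col3a1 and Pdgfra were not well above background on any array. The part of these markers in the result was not tested.

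Few of the restricted genes differed between the media by 2-fold or more in the line that showed them. Called by size alone, at least 2-fold and 1 array against 1, 11 of the 227 scramble genes (4.85%) were higher under AEPS and 7 (3.08%) lower, beside 5.79% and 5.94% of all named genes detected on both scramble arrays. Of the 38 knockdown genes, 5 (13.2%) were higher and 2 (5.26%) lower, beside 4.46% and 3.68% of all detected on both knockdown arrays. Among genes as bright as these, the shares were 5.50% and 4.11% on the scramble arrays and 4.10% and 4.39% on the knockdown arrays. The rule requires detection in both media, so a gene that AEPS switches on from below background could not enter.

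**Figure D4:**
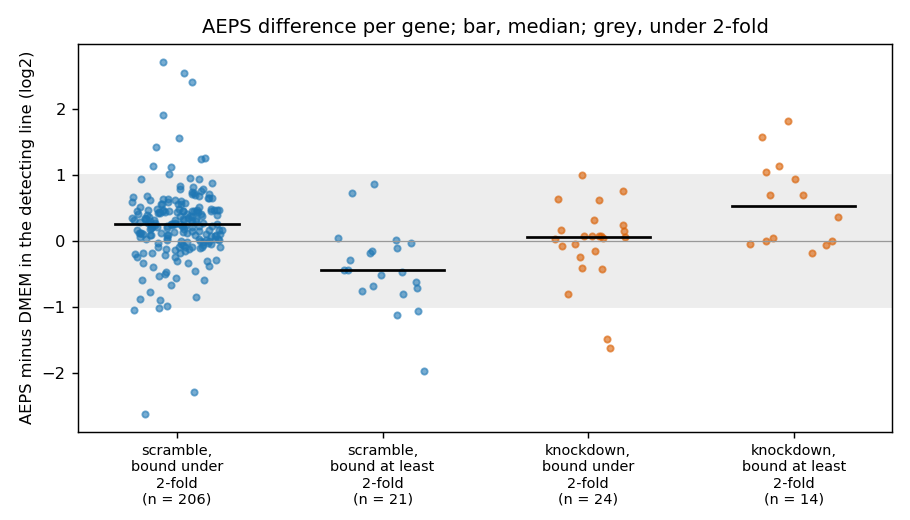
AEPS difference of each gene in its detecting line (vertical axis, log2, AEPS minus DMEM, 1 array against 1), for the scramble and knockdown genes with a bound under and at or above 2-fold; points are genes, bars medians, and the grey band marks differences under 2-fold. Most points lie in the band, and the medians of the genes with a bound of at least 2-fold are -0.44 for the scramble group and 0.53 for the knockdown group.

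The largest increases in the scramble group came from genes that were near the threshold in DMEM, as the plot of AEPS differences shows by the points far above the band. Chsy3, a chondroitin sulfate synthase, read 3.36% in DMEM and 22.2% under AEPS on the scramble arrays, a 6.61-fold difference, and 0.758% and 1.51% on the knockdown arrays. Ms4a4b, a membrane protein of the MS4A family, read 6.41% and 37.4% (5.84-fold) against 1.71% and 2.33%. Ms4a6b, of the same family, read 3.08% and 11.5% (3.75-fold) against 0.812% and 0.756%. For these 3 genes the step under AEPS was seen on the scramble arrays. Neither knockdown array was well above background, as the rule requires, so a step there could not be measured.

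Glyatl3, a glycine acyltransferase-like gene, was 5.35-fold higher (2.57% and 13.8%) and Slitrk2, a synaptic adhesion gene, 2.95-fold higher (2.77% and 8.18%) on the scramble arrays. As log2 line differences, knockdown minus scramble, Glyatl3 stood at 0.18 and -1.99, so it was brighter on the knockdown array in DMEM. Slitrk2 stood at -0.86 and -1.30. Among the decreases under AEPS, Tmem95, known from sperm membranes, read 25.1% in DMEM and 4.07% under AEPS (6.18-fold lower), against 2.29% and 3.78%. Slc44a5, a choline transporter-like gene, read 19.5% and 3.99% (4.89-fold lower) against 0.796% and 0.738%. Rab26, AI606473 and Cd24a were 3.93-fold, 2.19-fold and 2.09-fold lower under AEPS, and these 3 were the only genes of the leading 21 past 2-fold in either direction. They made up 14.3% of the 21, beside 5.94% lower and 5.79% higher of all named genes detected on both scramble arrays.

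On the knockdown arrays, 4 of the leading 14 (28.6%) were at least 2-fold higher under AEPS and none was lower by as much. Of all named genes detected on both knockdown arrays, 4.46% were higher and 3.68% lower. The bound that picked the 14 reads the AEPS array too. Klhl10 was 3.55-fold higher, Bcl11b 2.98-fold, Rufy4 2.21-fold and D030062O11Rik 2.06-fold, and Serpinb11 with a smaller bound was 2.01-fold higher. Lower were C1qtnf6, a secreted protein of the C1q and TNF related family (13.6% in DMEM and 4.39% under AEPS, 3.09-fold), and 6330522J23Rik (12.7% and 4.54%, 2.81-fold). Single arrays give no error for any of these differences.

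Over both lines together, AEPS was tested with limma in an additive model of line and medium, in which the line-by-medium difference with 1 degree of freedom serves as the residual. Of 22364 genes tested, 1666 (7.45%) rose and 1645 (7.36%) fell at an adjusted p of 0.05. Of the 265 genes, 7 rose and 7 fell. At an unadjusted p of 0.05 the model called 39 and 15 of them, beside 3922 and 3674 of all 22364 genes. All 265 passed the filter on low signal through the line that showed them. Each estimate therefore averages a measured difference with one between 2 values not well above background, so its size is not a measured fold. No call was left among the 265 genes when genes near background were kept in the fit.

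The called genes are listed with these averaged log2 estimates, which rest in part on values not well above background in the line without detection. Bcl11b had the largest positive estimate, 1.94. Rises were also called for Slitrk2 (1.34), 2900009J06Rik (1.18) and the receptor tyrosine kinase gene Insrr (1.04). The other rises were the odorant receptor gene Olfr943 (0.96), the pheromone receptor gene Vmn2r97 (0.91) and the myeloid surface receptor gene Cd200r4 (0.90). AI606473 had an estimate of -1.33. Falls were also called for St8sia5, a sialyltransferase, by a log2 difference of -1.32, for the acetyl-CoA synthetase gene Acss1 (-0.84), the mucin glycosyltransferase gene Gcnt3 (-0.84), Gm9733 (-0.75), the MAP kinase phosphatase gene Dusp9 (-0.71) and H2-Oa (-0.61), a chain of the MHC class II modulator H2-O. Of these 14 genes, Bcl11b, Olfr943 and Dusp9 belong to the knockdown group, and Bcl11b, Olfr943 and AI606473 have a bound of at least 2-fold in both media.

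Genes near the leading ones on the chromosome were compared next, taking only neighbours detected on all 4 arrays, which by that choice cannot be restricted themselves. Within 250 kb of the leading scramble genes lay 165 such genes, near 20 of the 21, with a median line difference of 0.03 in DMEM and 0.02 under AEPS. Around 13 of the 14 leading knockdown genes lay 112, with medians of -0.03 and 0.03, against -0.05 and 0.00 over all 14710 genes detected on all arrays. The share of all 14710 that was at least 2-fold lower on the knockdown arrays in both media was 0.836%, and the share at least 2-fold higher was 0.823%. Among the neighbours, 1 of 165 passed 2-fold in both media in the direction of its restricted gene, and 0 of 112 did. That gene, named after its value was seen, was Chst7, a sulfotransferase gene 8.4 kb from the Slc9a7 probe, with a difference of -2.72 in DMEM and -2.45 under AEPS. Near the knockdown genes, 2 passed in the opposite direction: Dhx58, an antiviral helicase gene 238.0 kb from Klhl10 (-1.72 and -1.73), and Tuba1a, a tubulin gene 178.0 kb from Wnt10b (-1.22 and -1.07).

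At close range, 2 developmental genes can be set beside their family members. Around Hoxb13, the cluster genes Hoxb4 to Hoxb8 were detected on all 4 arrays, with line differences between -0.54 and 0.33 in the 2 media, while Hoxb13 itself was at least 27.0-fold and 17.9-fold higher on the scramble arrays. Hoxb3 was uneven, at -1.36 in DMEM and 0.57 under AEPS. Next to Wnt10b, Wnt1, the ligand gene 21.9 kb away, differed by 0.59 and 0.83 on the log2 scale, while Wnt10b was at least 18.4-fold and 27.0-fold higher on the knockdown arrays. Genes within 500 kb of one another were grouped separately for the scramble and the knockdown genes. The scramble genes formed 19 groups and the knockdown genes none. Groups that mix scramble and knockdown genes were not looked for. The scramble set is the larger, with 227 genes against 38. How often other detected genes lie as close was not computed, so the count of groups stands without a comparison. Among the groups were Fam149a with Tlr3 (chromosome 8, 57.3 kb), Slc44a5 with AI606473 (chromosome 3, 69.2 kb) and Ms4a4b with Ms4a6b (chromosome 19, 67.3 kb). Others were Lamb2 with P4htm (chromosome 9, 89.2 kb) and the defensin genes Defa3, Gm7849 and Gm15308 (chromosome 8, 212.5 kb). The defensin family did not go 1 way, since Defa5 is among the knockdown genes. Near Defa3, Defa1 and Defa40 (listed as Gm15292) were detected on all 4 arrays. Their line differences were 0.93 and 1.12, and 0.74 and 0.32, both higher on the knockdown arrays. On the scramble arrays, Slc44a5 and AI606473 were both lower under AEPS, and Ms4a4b and Ms4a6b both higher, pairs picked after their values were seen. Fam149a and Tlr3 differed between the media by 0.009 and 1.12 log2 units, and Lamb2 and P4htm by -0.11 and 0.19. Agreement within the other groups was not counted.

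Several probes were available for 53 of the 227 and 7 of the 38 genes, but in only 3 did 2 probes meet the rule. Besides Fam149a, these were Nfib, a transcription factor of the nuclear factor I family, and Cpt1c, a carnitine palmitoyltransferase of the brain. The Nfib probes read 4.86% and 7.31% against 2.86% and 3.06%, and 4.75% and 5.22% against 2.77% and 3.07%. The Cpt1c probes read 5.92% and 4.08% against 2.42% and 2.59%, and 3.78% and 3.75% against 3.16% and 1.78%. Because both probes of each gene met the rule, their order between the lines was fixed by that choice, and their brightness differed. In 51 of the 227 and 7 of the 38 genes, a further probe did not meet the rule. The values of those probes are not described here.

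The start regions of the 2 leading genes of each group that have a RefSeq promoter entry are printed because these are the genes with the widest gap between the lines. Each runs from 250 bases before to 50 bases after the start of the gene, from RefSeq with the build GRCm38.p6, 5′ to 3′ on the gene's own strand, with CpG dinucleotides in capitals.
Fam149a: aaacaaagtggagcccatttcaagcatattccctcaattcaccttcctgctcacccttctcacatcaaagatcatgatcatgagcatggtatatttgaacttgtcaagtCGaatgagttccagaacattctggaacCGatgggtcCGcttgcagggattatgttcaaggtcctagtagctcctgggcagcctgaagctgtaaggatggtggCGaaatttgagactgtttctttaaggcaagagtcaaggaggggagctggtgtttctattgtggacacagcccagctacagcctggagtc
Agap2: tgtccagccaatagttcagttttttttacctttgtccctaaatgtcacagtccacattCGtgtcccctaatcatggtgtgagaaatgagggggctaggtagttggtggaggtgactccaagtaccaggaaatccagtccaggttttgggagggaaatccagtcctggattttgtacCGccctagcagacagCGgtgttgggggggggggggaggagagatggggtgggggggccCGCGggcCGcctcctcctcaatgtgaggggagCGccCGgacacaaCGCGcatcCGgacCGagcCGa
Maged1: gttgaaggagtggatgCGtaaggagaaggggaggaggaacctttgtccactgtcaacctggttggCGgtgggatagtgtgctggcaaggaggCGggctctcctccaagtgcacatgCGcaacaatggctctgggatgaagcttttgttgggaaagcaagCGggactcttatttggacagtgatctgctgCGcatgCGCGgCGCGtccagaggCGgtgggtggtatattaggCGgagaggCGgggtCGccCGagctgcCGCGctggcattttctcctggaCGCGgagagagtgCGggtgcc
Wnt10b: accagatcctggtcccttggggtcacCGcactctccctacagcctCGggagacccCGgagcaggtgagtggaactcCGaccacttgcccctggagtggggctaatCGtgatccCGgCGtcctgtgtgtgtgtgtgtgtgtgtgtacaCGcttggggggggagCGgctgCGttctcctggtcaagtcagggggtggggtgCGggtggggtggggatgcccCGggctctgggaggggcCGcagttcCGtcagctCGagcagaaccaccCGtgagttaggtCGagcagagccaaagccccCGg
The 2 scramble genes hold 4 and 13 CpG dinucleotides and the 2 knockdown genes 20 and 18, against a median of 7 over 27025 promoters of the table. Each was searched on both strands for 5 motifs: the GC box, spelled GGGCGG and present in 35.9% of all promoters, the promoter box TATAAA, present in 14.2%, the E box, spelled CACGTG, in 7.24%, the AP-1 site, spelled TGACTCA, in 5.17%, and the PU.1 core, spelled GAGGAAG, in 13.5%. The single match was the first of these, in Agap2. A promoter was matched for 135 of the 227 and 27 of the 38 genes, too few for a check of composition over the groups.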

How the data were processed

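Total RNA of 4 cultures was read on 4 Agilent arrays, all on 1 slide and in 1 scan. Each array held 62976 spots, of which 53.4% to 58.0% of the non-control spots were well above background and 0 were saturated. Per the file headers, Agilent Feature Extraction 10.7.1.1 subtracted background from the deposited intensity and removed spatial trends array by array, without scaling arrays to each other. The deposited value table holds log2 values made by steps that are not stated in the labels or headers, and was used as an alternative only.

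Each log2 intensity was taken relative to the 75th percentile of its array's non-control spots (439.1 to 587.7). Outlier spots (164 to 231 an array) were left out, and repeated spots were averaged per probe. A probe was detected where most of its spots were marked well above background, and not detected where none was. A named gene is one whose design name does not start with lincRNA, chr, ENSMUST, A_5 or TC. Igf2bp1, Lin28b, Sly and genes on the Y chromosome were left out. The bound's lowest detected signal was taken over probes with every spot marked. The gene's value is that of its qualifying probe that was brightest in the detecting line.

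AEPS was tested with limma 3.58.1 in R 4.3.3 (lmFit, eBayes, prior 2.83 degrees of freedom) on genes well above background on at least 2 arrays, with Benjamini-Hochberg adjustment. The code was tested on simulated data. The p-values rest on the line-by-medium difference of each gene, with 1 residual degree of freedom, and on the prior variance drawn from all genes tested. They measure no spread between replicate cultures. Genes named in the text are the 12 largest and 3 smallest bounds of each group, up to 5 AEPS differences each way, members of symbol lists, genes with 2 qualifying probes and the 3 nearest genes outside the rule on each side, with the other genes that a list, neighbourhood or limma count singles out. The members and the lists were chosen with earlier results of these data known. Alternatives changed the detection mark, the medium, the scaling, the background correction, the outlier filter, the grouping of probes and the line labels. A gene of the knockdown group is counted but not reported by name here.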

Additional observations from a re-analysis of the deposited data

How the results depend on the processing

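The counts of restricted genes moved with the definition. Instead of 227 on the scramble arrays and 38 on the knockdown arrays, 1055 and 188 genes met the rule on the DMEM arrays alone, and 616 and 355 on the AEPS arrays alone. With a bound of at least 2-fold in both media 21 and 14 were left (21 and 13 after quantile normalization, and 21 and 15 with Psd4 when the lowest detected signal was taken over probes with most and not all spots marked, a setting chosen after seeing the data), and under the value table's line labels the counts were exchanged, at 38 and 227. A common threshold, chosen after seeing the data, gave 82 and 100. The mark for positive and significant signal gave 289 and 53, of which 11 and 3 were among the genes described, so that mark picks other genes. With the normexp background correction the median line differences shrank to -0.11 and -0.14 for the scramble genes and to 0.35 and 0.44 for the knockdown genes, in DMEM and under AEPS. In the value table they were 0.47 and 0.65, and -1.91 and -2.18, with the opposite sign. Of the line and AEPS differences of single named genes, 104 moved, 6 did not and 1 turned under normexp (Dlk1 in DMEM, 0.019), and 7 moved and 104 did not under quantile normalization. The AEPS counts in the detecting line became 2 higher and 2 lower (scramble) and 1 and 0 (knockdown) under normexp. At 1.5-fold they became 40 and 20 (scramble) and 11 higher (knockdown). The shares over all genes were not computed for these 2 settings. The limma counts of members were 0 and 0 without the filter, 1 and 2 under normexp, and 7 and 4 with an intensity trend. Over all genes they were 281 and 34 of 36154, 2392 and 3594 of 22364, and 3634 and 3082 of 22364. Without the filter, 24 and 13 members had an unadjusted limma p under 0.05, beside 3258 and 2926 of all 36154. No paired analysis was possible because each group holds 1 array and the groups share only 1 replicate number, so the numbers pair nothing. The limma fit compares the media within each line. Leaving out an array was not run because it would empty a group. Signal over background limits the set: most members lie within a few-fold of each array's lowest detectable signal.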
